A study of Rattus norvegicus with 5 samples.

Results

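The BCL2 family decides in most animal cells whether the outer mitochondrial membrane stays intact or opens. The set described here comprised 10 rat genes of the family, taken by symbol, each with all its probes. They were 3 survival genes (Mcl1, Bcl2 and Bcl2l1), 2 pore formers (Bax and Bak1) and 5 genes of the BH3-only group (Bcl2l11, Bmf, Bik, Bad and Bid). Of 41012 probes on the array, 17 belonged to these 10 genes, 5 of which had more than 1 probe.

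Survival proteins hold the pore formers Bax and Bak1 in check, and BH3-only proteins release them by binding the survival proteins or the pore formers themselves. Once the pore formers assemble, cytochrome c leaves the mitochondria, the apoptosome forms and caspases are activated. In liver cells insulin acts on the family at several levels: Akt phosphorylates Bad, and it keeps FoxO transcription factors, which can activate the Bcl2l11 gene, out of the nucleus. Mcl1 is known for short-lived mRNA and protein, so that its level can follow a stimulus quickly.

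Fao cells, a rat hepatoma line that keeps many hepatocyte functions, were grown for 2 days in medium with 10% serum and then starved for 16 h in medium that contained dexamethasone, a glucocorticoid drug, at 10 nM. All 5 samples share the starvation and the dexamethasone, and differ in the time of 10 nM insulin, which was 0, 15, 30, 45 or 60 min. Total RNA of each sample was labelled with Cy3 and measured on 1 single-colour Agilent array, so no time had a replicate, and a value at a single time carries no p-value. The number of arrays limits the precision, and the labels do not say whether the 5 samples came from separate cultures.

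Each array had 43379 non-control spots, of which the scanner software marked 22069 to 24489 as well above background and none as saturated. The arrays of 0 to 45 min lay on slide 1, in positions that followed the order of time, and the 60 min array lay on slide 2 with its own scan. Slide and time cannot be told apart at 60 min, nor position and time within slide 1. The 75th percentile of signal, by which each array was divided, was 253.5 to 300.2 units on slide 1 and 479.3 units at 60 min. All 8 hepatocyte markers were well above background on all 5 arrays, with Alb at 7.88 to 8.10 and Hnf4a at -0.95 to -0.77 log2 units. Of 7 markers of other liver cells on the array, Pecam1 and Krt7 were on no array well above background. The other 5 (Cd68, Cdh5, Col1a1, Col1a2 and Krt19) were on all 5, with Col1a1 at 0.66 to 0.77 log2 units. Cdh5 was -0.59 log2 units from its 0 min level at 60 min, and the part of these markers in the results was not tested.

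Few members changed by 1.5-fold or more. In all, 14 member probes were well above background on all 5 arrays, which gave 56 changes against 0 min, and 53 of them were under 1.5-fold. The other 3 belonged to 2 BH3-only genes: the Bmf signal was lower than at 0 min by 1.72-fold at 30 min and by 1.55-fold at 60 min, and the Bcl2l11 signal exceeded its 0 min value by 1.51-fold at 45 min. Over all genes measured on both arrays, 2.02%, 2.06%, 2.81% and 7.16% were past 1.5-fold in either direction at 15, 30, 45 and 60 min. No member reached 2-fold at any time, where 0.388%, 0.443%, 0.598% and 1.34% of all genes did. No member probe passed the test for a trend over time, and neither did any other probe (0% of 24002; limma, adjusted p). Levels are given as log2 of the signal over the 75th percentile of the array, a scale on which different probes cannot be set against each other. The error of a change is the propagated error that the scanner software gives for the signals of both arrays, 0.204 to 0.279 log2 units for member probes. It covers the reading of the spots and not the spread between cultures. By the brightest probe of each gene, 0, 1, 1 and 1 of 9 measured members changed by over 2 times this error at 15, 30, 45 and 60 min, against 4.55%, 4.76%, 6% and 15.7% of all genes. In RNA from whole cultures, fewer cells that express a gene and less RNA per cell cannot be told apart.

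**Figure D1:**
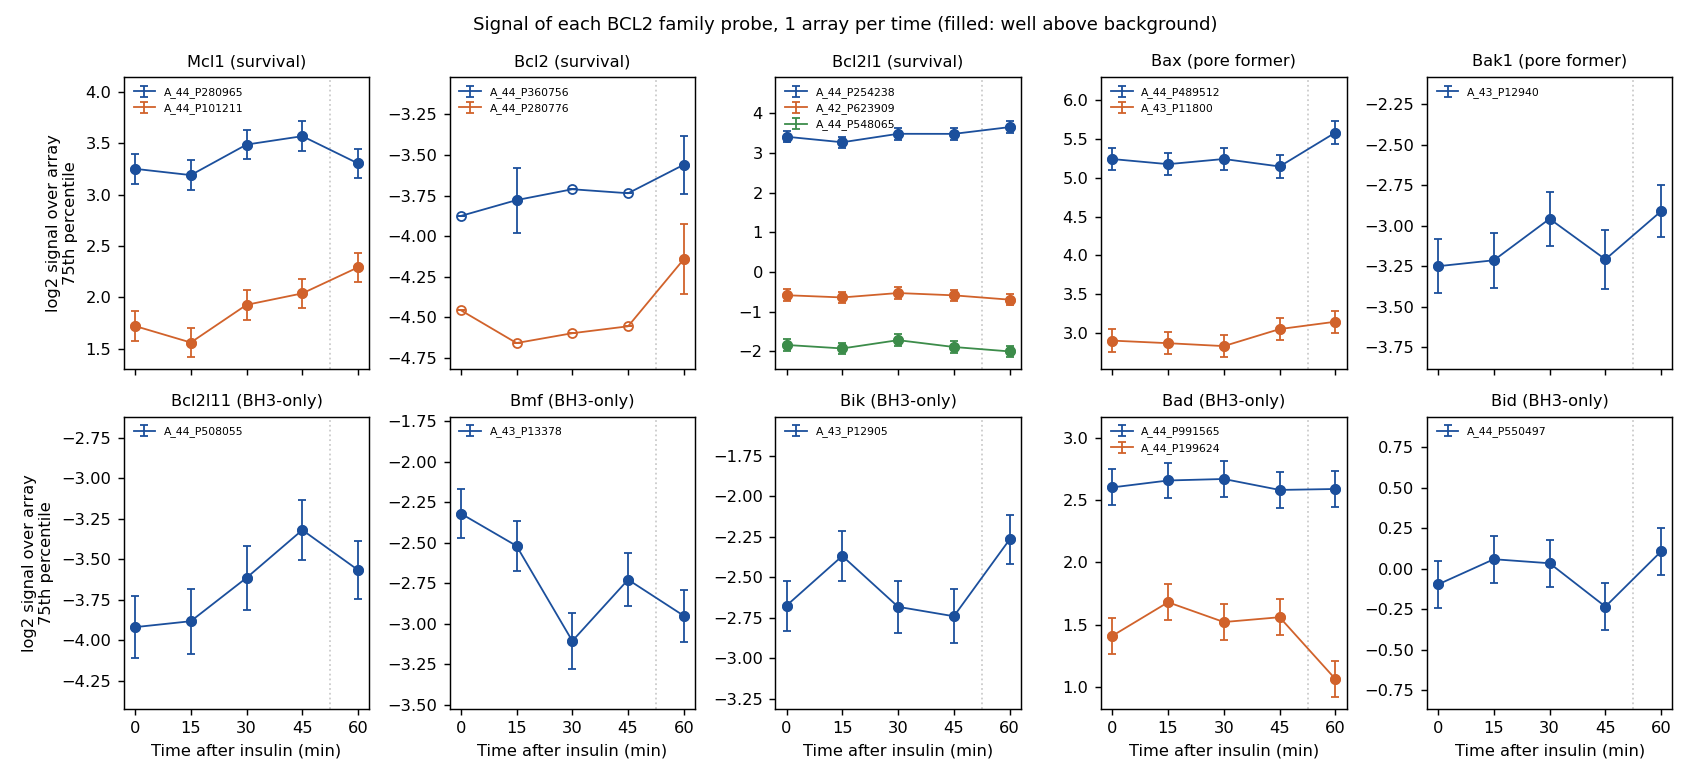
Signal of the member probes (log2 over the 75th percentile of the array) against minutes of insulin, 1 array per time, with the software's error as bars, filled points for probes well above background and a dotted line between slides 1 and 2. The Bcl2l1 probe that was on no array above background is not drawn. Bmf was lowest at 30 min, Bcl2l11 was highest at 45 min, and the brighter Bad probe was nearly level.

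Mcl1, a survival protein that binds Bak1 and BH3-only proteins, had 2 probes whose positions on rn4 were chr2_random:2891685-2891744 and chr2_random:2891461-2891520, both on the minus strand and 224 bases apart. The brighter probe, A_44_P280965, read 3.25, 3.19, 3.49, 3.57 and 3.30 log2 units at 0, 15, 30, 45 and 60 min. The dimmer probe, A_44_P101211, read 1.72, 1.56, 1.93, 2.04 and 2.29 log2 units at the same times. On slide 1 both probes were lowest at 15 min and highest at 45 min. Their changes at 45 min against 0 min were the same to 2 decimals, 0.32 log2 units each (error 0.204). At 60 min they parted, since the brighter probe was 0.05 and the dimmer probe 0.57 log2 units above 0 min, a difference of 0.52. The dimmer probe's change of 1.49-fold at 60 min was the only Mcl1 change against 0 min over 2 times its error. Its slope over the 5 arrays was 0.65 ± 0.17 log2 units per hour (SE; limma, unadjusted p = 0.0116, adjusted p = 0.495), and the brighter probe's was 0.19 ± 0.19 (limma, adjusted p = 0.751). Without the 60 min array the slopes were 0.53 for the dimmer and 0.50 for the brighter probe (limma, adjusted p = 0.570 for both). Against the 15 min array in place of the 0 min array, the dimmer probe was 0.73 log2 units higher at 60 min, past 1.5-fold.

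The promoter of Mcl1 is shown because its gene is the family's fast-turnover survival member. RefSeq (GRCr8) gives the 250 bases before its start as chr2:185907918-185908167 on the plus strand. Capitals mark a CCGGAAG match, the core bound by ETS factors, on the plus strand 133 bases before the start, and a CGTCA match, which is the TGACG core of the cyclic AMP response element (CRE) on the minus strand, 55 bases before the start.
Mcl1: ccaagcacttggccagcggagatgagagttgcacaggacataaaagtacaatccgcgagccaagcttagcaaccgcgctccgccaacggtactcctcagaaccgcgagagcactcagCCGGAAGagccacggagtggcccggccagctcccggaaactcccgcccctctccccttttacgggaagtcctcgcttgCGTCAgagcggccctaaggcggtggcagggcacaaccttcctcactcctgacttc
Across 33469 rat promoter windows of the same length, read on both strands, 7.27% held CCGGAAG and 18.2% held TGACG. The matches describe these letters and are not evidence of binding.

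Bcl2, the founding survival gene of the family, was at the edge of detection in Fao cells. Its probe A_44_P360756 (rn4, chr13:12903960-12904017, minus strand) read -3.88, -3.78, -3.71, -3.74 and -3.56 log2 units over the 5 times and was well above background only at 15 and 60 min. The 15 min level exceeded the dim 0 min reading by 0.10 log2 units (1.07-fold), and the 60 min level exceeded it by 0.32 (1.24-fold). Neither value is a lower limit, because the 0 min reading was not well above background and is uncertain. The difference at 15 min is smaller than the software's error of the 15 min reading, 0.20 log2 units. The other Bcl2 probe, A_44_P280776 (rn4, chr13:12904758-12904817, minus strand), was printed as 10 spots. Its spots averaged 13.7, 10.6, 10.5, 10.8 and 27.2 signal units at 0, 15, 30, 45 and 60 min before scaling. Of the 10 spots, 10 were well above background at 60 min, against 1, 0, 0 and 1 at 0, 15, 30 and 45 min. The scaled level at 60 min was 1.24-fold higher than the dim 0 min reading, whose spots had an SD of 0.35 log2 units. The 60 min array was also brighter, and its share of detected spots over the whole array was 56.45% against 50.87% to 52.6% on slide 1. Whether the Bcl2 reading at 60 min belongs to the slide or to the time cannot be told apart. Over the 5 arrays the slopes of the 2 probes were 0.27 and 0.29 log2 units per hour. With the normexp background correction in place of the scanner software's they turned to -0.64 and -0.76. With normexp refitted without 5 distorting spots they were -0.16 and -0.23.

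Bcl2l1, which encodes the survival protein Bcl-xL, was measured by 3 of its 4 probes, and none of them moved by 1.5-fold. Its brightest probe, A_44_P254238 (rn4, chr3:143129343-143129402, minus strand), read 3.41, 3.27, 3.48, 3.48 and 3.65 log2 units over the 5 times. Probe A_42_P623909 (chr3:143178021-143178080) read -0.59, -0.64, -0.53, -0.59 and -0.70 log2 units. Probe A_44_P548065 (chr3:143178503-143178562) read -1.84, -1.93, -1.72, -1.89 and -2.00 log2 units. All 3 were slightly lower at 15 min and slightly higher at 30 min than at 0 min. At 60 min they disagreed in direction: the brightest probe was 0.24 log2 units higher than at 0 min, whereas the other probes were lower, by -0.11 and -0.16. The brightest probe lies 47761 to 49160 bases from the others on rn4. The last probe, A_43_P12577, was not well above background on any array.

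The pore former Bax, which moves from the cytosol into the mitochondrial membrane, was measured by 2 probes. Probe A_44_P489512 (rn4, chr1:95932941-95933000, minus strand) read 5.24, 5.17, 5.24, 5.14 and 5.58 log2 units at 0, 15, 30, 45 and 60 min. Probe A_43_P11800, for which the files give no position, read 2.90, 2.87, 2.83, 3.05 and 3.15 log2 units as the mean of 8 to 10 usable spots, with an SD between spots of 0.080 to 0.127. Both were highest at 60 min, 0.34 and 0.24 log2 units above 0 min, and at 45 min they differed in sign, at -0.10 and 0.15. Without the 60 min array the slope of the first probe turned to -0.09 log2 units per hour, against 0.26 over 5 arrays (limma, adjusted p = 0.823 and 0.678). Bak1, the pore former that sits in the membrane already, had 1 probe (A_43_P12940; rn4, chr20:5256042-5256101, minus strand), which read -3.25, -3.21, -2.96, -3.21 and -2.91 log2 units. Its highest readings were at 30 and 60 min, 0.29 and 0.34 log2 units above 0 min, both within 2 times the error. With the normexp background correction in place of the scanner software's, the value at 60 min turned to -0.11.

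Among the BH3-only genes, Bcl2l11, which encodes Bim and is a known target of FoxO factors, was highest at 45 min. Its probe A_44_P508055 (rn4, chr3:115722606-115722665, plus strand) read -3.92, -3.88, -3.61, -3.32 and -3.57 log2 units at 0, 15, 30, 45 and 60 min. Before scaling these were signals of 19.9, 18.1, 20.7, 25.5 and 40.5 units, so the probe was among the dim ones and a few units decide its change. The levels at 30, 45 and 60 min lay above those at 0 and 15 min. The change was 0.30 log2 units at 30 min, 0.60 ± 0.27 at 45 min (1.51-fold; software error) and 0.35 at 60 min, and the value at 45 min lay just past the 1.5-fold line. The slope was 0.51 ± 0.19 log2 units per hour over the 5 arrays (SE; limma, unadjusted p = 0.0434, adjusted p = 0.564). Over the 4 arrays of slide 1 it was 0.83 ± 0.16 (limma, unadjusted p = 0.0109, adjusted p = 0.570). Against the 15 min array in place of the 0 min array the change at 45 min was 0.56 log2 units, under 1.5-fold. With normexp Bcl2l11 was 0.25 log2 units above 0 min at 45 min and -0.23 at 60 min, so that the 1.5-fold call was lost and the sign at 60 min turned. The slope turned too, to -0.60 log2 units per hour with normexp on all spots and -0.14 with normexp refitted without 5 distorting spots (limma, adjusted p = 0.763 and 0.759).

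Bmf, a BH3-only protein that binds a dynein light chain and is released on stress, was the member with the widest range. Its probe A_43_P13378 (rn4, chr3:104966656-104966715, minus strand) read -2.32, -2.52, -3.11, -2.73 and -2.95 log2 units at 0, 15, 30, 45 and 60 min, or 60.1, 46.6, 29.5, 38.5 and 62.0 signal units before scaling. All later levels lay below the 0 min level, with the lowest at 30 min. The change was -0.20 log2 units at 15 min, -0.79 ± 0.23 at 30 min, -0.41 at 45 min and -0.63 ± 0.22 at 60 min (software errors). The values at 30 and 60 min were over 2 times the error. Against the 15 min array in place of the 0 min array the changes were -0.59, -0.21 and -0.43 log2 units at 30, 45 and 60 min, so that only the value at 30 min stayed past 1.5-fold. The slope was -0.59 ± 0.26 log2 units per hour over the 5 arrays (SE; limma, unadjusted p = 0.0688, adjusted p = 0.564). With normexp the change was -0.29 log2 units at 30 min and -0.56 at 60 min, under 1.5-fold at both times.

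The promoters of these genes are shown because they carried the only changes past 1.5-fold. RefSeq (GRCr8) gives the 250 bases before the start of Bcl2l11 as chr3:135819792-135820041 on the plus strand and those of Bmf as chr3:125974065-125974314 on the minus strand. Capitals in Bcl2l11 mark GTAAACA, the core bound by FoxO factors, on the plus strand 204 bases before the start, and CTTCCGG, which is the ETS core on the minus strand, 82 bases before the start. Capitals in Bmf mark TGACG on the plus strand 27 bases before the start.
Bcl2l11: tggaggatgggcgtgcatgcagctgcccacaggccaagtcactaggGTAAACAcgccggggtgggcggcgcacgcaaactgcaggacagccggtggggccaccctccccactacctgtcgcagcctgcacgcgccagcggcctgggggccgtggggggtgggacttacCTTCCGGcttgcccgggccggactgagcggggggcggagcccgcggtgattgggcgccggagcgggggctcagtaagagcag
Bmf: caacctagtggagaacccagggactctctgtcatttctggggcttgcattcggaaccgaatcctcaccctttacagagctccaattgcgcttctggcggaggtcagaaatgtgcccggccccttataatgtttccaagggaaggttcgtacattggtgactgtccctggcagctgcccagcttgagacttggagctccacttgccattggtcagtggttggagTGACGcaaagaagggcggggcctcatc
The FoxO core was in 3.21% of the 33469 windows. Of the 11 windows that RefSeq lists for 8 members, those of Bcl2l11 and Bad held GTAAACA, in Bad on the minus strand 118 bases before the start. CCGGAAG was in the windows of Mcl1 and Bcl2l11 and in 2 of those of Bcl2l1. CAAAACA, the core of the classic insulin response sequence, and the full CRE, TGACGTCA, which contains TGACG, were in none of the 11 windows, and in 5.46% and 1.59% of all windows. Bad and Bcl2l11, which share the FoxO core, had ranges over the 5 arrays of 0.09 or 0.62 log2 units, by probe, for Bad and 0.60 for Bcl2l11.

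Bad, the BH3-only protein that Akt phosphorylates, had the smallest range of the members by its brighter probe. That probe, A_44_P991565 (rn4, chr1:209626000-209626059, plus strand), read 2.60, 2.66, 2.67, 2.58 and 2.59 log2 units over the 5 times. Its range of 0.09 log2 units was matched or exceeded by 98.8% of the 16714 genes well above background on all 5 arrays. The dimmer probe, A_44_P199624, which the files place 8522 bases away over a span of 496 bases (chr1:209617478-209617973), read 1.41, 1.68, 1.52, 1.56 and 1.06 log2 units. It was higher than at 0 min on the other arrays of slide 1 and 0.35 log2 units lower at 60 min, and its slope was 0.12 log2 units per hour on slide 1, against -0.33 over 5 arrays (limma, adjusted p = 0.880 and 0.680). Against the 15 min array it was -0.62 log2 units at 60 min, past 1.5-fold. Its range over the 5 arrays was 0.62 log2 units.

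Bik, a BH3-only protein of the endoplasmic reticulum, had 1 probe (A_43_P12905; rn4, chr7:121377009-121377068, minus strand), which read -2.67, -2.37, -2.68, -2.74 and -2.27 log2 units. It was 0.31 log2 units higher at 15 min and 0.41 higher at 60 min than at 0 min, and within 0.07 of the 0 min level in between. The value at 60 min was -0.0003 with normexp and 0.10 against the 15 min array. Bid, which links death receptors to mitochondria after cleavage by caspase-8, had 1 probe (A_44_P550497; rn4, chr4:157297971-157298030, minus strand), which read -0.10, 0.06, 0.03, -0.23 and 0.11 log2 units. Neither gene had a change against 0 min over 2 times its error. Between 45 min on slide 1 and 60 min on slide 2, Bik differed by 0.47 log2 units (error 0.224), which is over 2 times the error.

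By the brightest probe of each gene, 9 members were measured on all 5 arrays, all but Bcl2. At 15 min 0 of 9 were past 1.5-fold against 0 min, beside 2.02% of 17261 genes. At 30 min 1 of 9, Bmf, was at least 1.5-fold lower, against 0.921% of 17152 genes. At 45 min 1 of 9, Bcl2l11, was at least 1.5-fold higher, against 1.75% of 17233 genes. At 60 min 1 of 9, Bmf, was at least 1.5-fold lower, against 3.72% of 17838 genes. A single gene among 9 is too few to set the family apart from these shares. Both genes were dim, and among the dimmer genes of the array the shares were larger, 1.67% lower at 30 min, 2.5% higher at 45 min and 5.67% lower at 60 min.

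**Figure D2:**
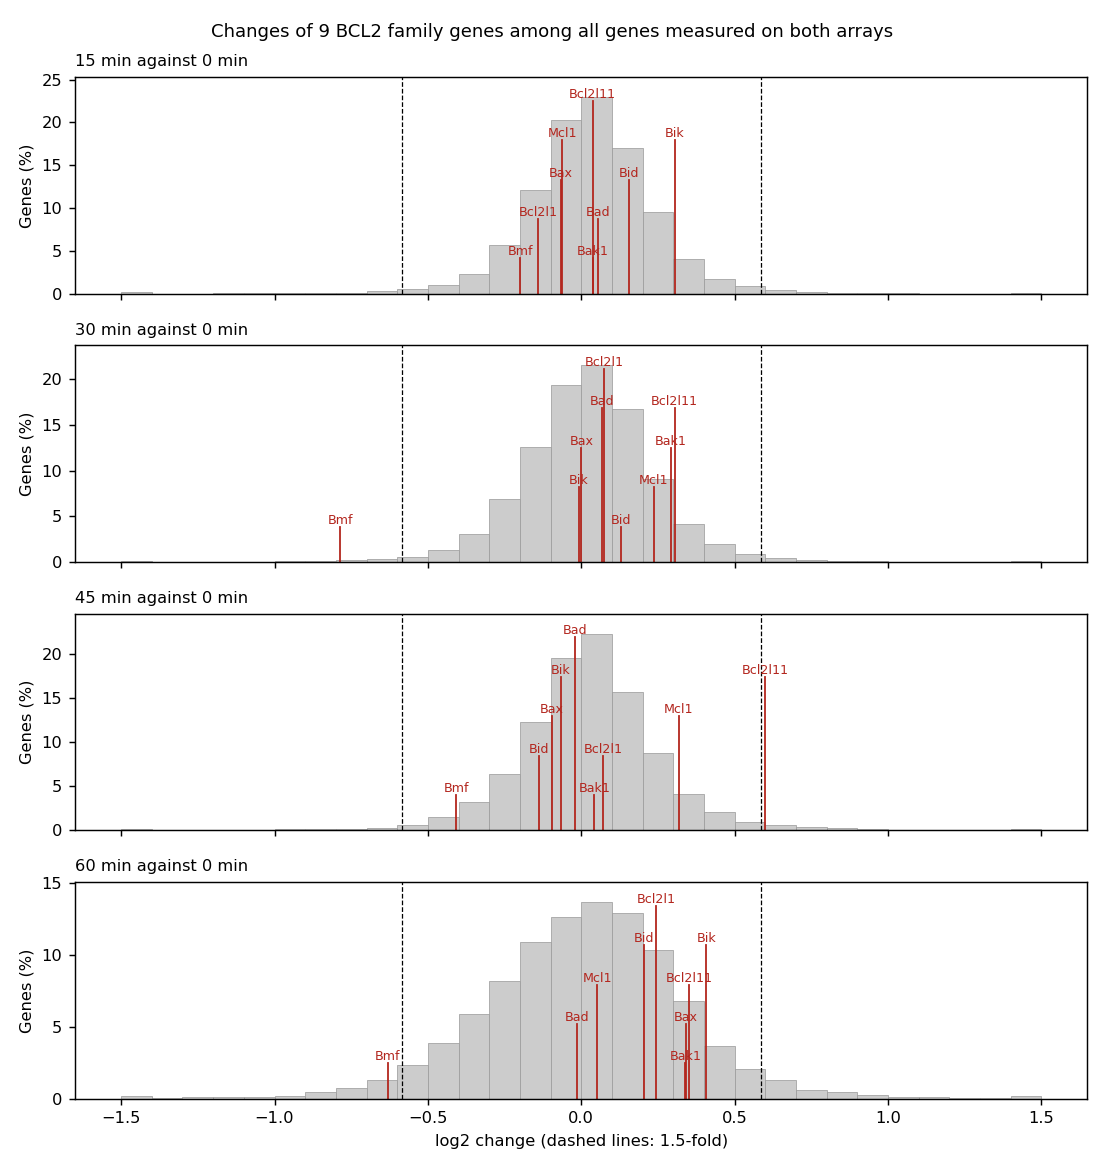
Histograms of the log2 change of all genes measured on both arrays (percent of genes per 0.1 log2 units; the end bins hold all values beyond), for each time against 0 min, with the 9 measured members as red lines whose heights only separate the names. Dashed lines mark 1.5-fold. Bmf at 30 and 60 min and Bcl2l11 at 45 min lie beyond them.

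The median change of the 9 members was 0.04, 0.07, -0.02 and 0.24 log2 units at 15, 30, 45 and 60 min, beside 0.03, 0.02, 0.03 and 0.02 over all genes measured. Members above their 0 min level numbered 5, 7, 4 and 7 of 9, beside 57.1%, 55.4%, 55.5% and 52.7% of all genes. The spread over all genes was also widest at 60 min, with an SD of 0.343 log2 units against 0.227 to 0.251 at the earlier times. By the brightest probe of each gene, the range across the 5 arrays was 0.79 log2 units for Bmf, 0.60 for Bcl2l11, 0.47 for Bik, 0.44 for Bax, 0.38 for Bcl2l1 and for Mcl1, 0.34 for Bid and for Bak1 and 0.09 for Bad, where the median gene had 0.36. The dimmer probes of Mcl1 and Bad had wider ranges, 0.73 and 0.62. Of all genes well above background on all arrays, 6.49% had a range at least as wide as that of Bmf and 15.8% one at least as wide as that of Bcl2l11.

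The trend over time was fitted to 24002 probes well above background on at least 1 array, 16 of them of members. None of the 16 passed at a 5% false discovery rate, and 2 had an unadjusted p under 0.05 (limma): the dimmer Mcl1 probe and Bcl2l11. Over the array 0% of probes passed after adjustment and 8.75% had an unadjusted p under 0.05. When the fit was kept to the 19746 probes detected on every array, 2 probes passed over the array. Of 14 member probes 0 passed, and 3 had an unadjusted p under 0.05 (limma), beside 2006 of all 19746 probes. The smallest adjusted p of a member probe was then 0.302 (limma). With 5 arrays and 3 residual degrees of freedom, a slope that misses the threshold does not show that a level was constant.

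The machinery around the family was read from 4 lists of 58 other apoptosis genes, 53 of them on the array and 47 well above background on all 5 arrays. At 15 min 2 of 48 measured genes were at least 1.5-fold lower than at 0 min, against 0.95% of all genes. They were Casp9, the initiator caspase of the apoptosome, at -0.61 log2 units, and Tnfrsf10b, the TRAIL receptor, at -0.61, and neither passed with normexp refitted without 5 distorting spots. At 30 and 45 min 0 of 47 and 0 of 48 were past 1.5-fold, against 2.06% and 2.81% in either direction. At 60 min 2 of 48 exceeded their 0 min level by at least 1.5-fold, against 3.44% of all genes: Ripk1, a kinase of the TNF receptor complex, at 0.81 log2 units, and Tnfrsf1a, the main TNF receptor of liver cells, at 0.66. With normexp the 2 genes past the line were Tnfrsf1a and Cycs, which encodes cytochrome c, and Ripk1 was not past it. Tnfrsf10b is named because it was past the line, after its values were seen. The median of all 4 lists was -0.01, -0.02, 0.03 and 0.13 log2 units at the 4 times.

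**Figure D3:**
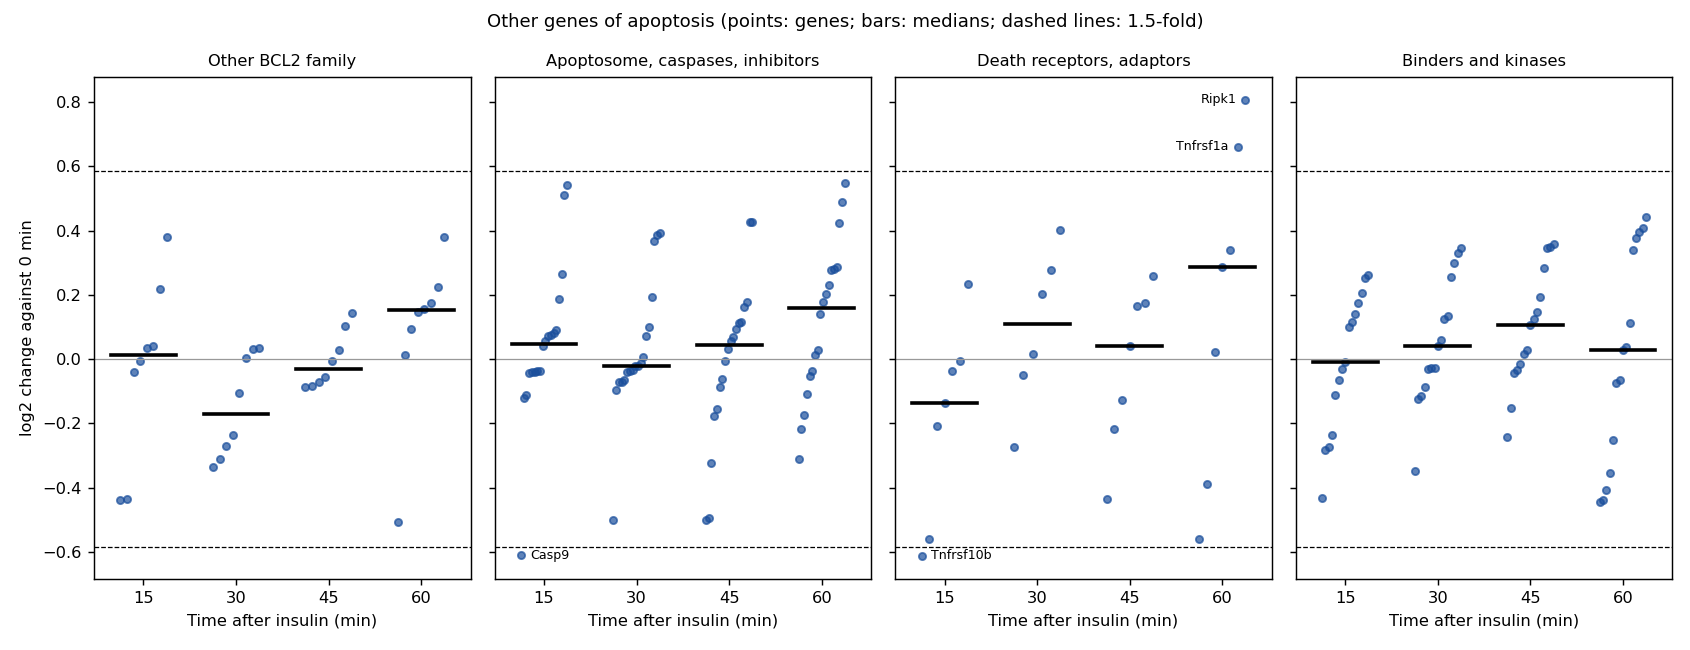
log2 change against 0 min of the genes of 4 lists around the family (points, ordered by value within each time; bars, list medians; dashed lines, 1.5-fold). Only Casp9 and Tnfrsf10b at 15 min and Ripk1 and Tnfrsf1a at 60 min lie beyond the lines.

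Among 8 other BCL2 family genes measured, none passed 1.5-fold at any time by its brightest probe, and the list's median was 0.01, -0.17, -0.03 and 0.15 log2 units. Hrk, a BH3-only gene, was -0.27 log2 units from its 0 min level at 30 min and -0.51 at 60 min, and its other probe -0.65 and -0.36. Bok, a pore former of the endoplasmic reticulum, was -0.43 at 15 min and 0.38 at 60 min. Bbc3, the p53 target Puma, was -0.31 at 30 min and 0.18 at 60 min.

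Among 18 genes of the apoptosome, the caspases and their inhibitors the median was 0.05, -0.02, 0.04 and 0.16 log2 units. Casp9 was 0.50 log2 units below its 0 min level at 30 and at 45 min and -0.05 from it at 60 min. Its other probe changed by -0.11, -0.29, -0.43 and 0.08 log2 units. Birc3, an inhibitor of apoptosis induced by NF-kB, was 0.06, 0.37, 0.43 and 0.55 log2 units above 0 min in order of time. Birc5, known as survivin, was 0.51, 0.39, 0.43 and 0.29 above it.

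Among 7 measured genes of death receptors and adaptors the median was -0.14, 0.11, 0.04 and 0.29 log2 units, from 6 genes at 30 min. Ripk1 was -0.14, 0.02 and 0.26 log2 units from 0 min at the earlier times, and Tnfrsf1a -0.21, 0.40 and 0.04, so that both reached 1.5-fold only on the slide 2 array. Fadd, the adaptor that recruits caspase-8, was 0.18 to 0.28 log2 units above 0 min on slide 1 and -0.39 from it at 60 min.

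Among 15 genes whose products bind, phosphorylate or turn over members the median was -0.01, 0.04, 0.11 and 0.03 log2 units. Rps6ka1, a kinase that phosphorylates Bad, was 0.19 to 0.30 log2 units above 0 min on slide 1 and -0.41 from it at 60 min. Ppp3ca, the catalytic subunit of calcineurin, which removes phosphate from Bad, was 0.36 above at 45 min and 0.40 at 60 min, where its other probe was at 0.14 and 0.03. Mapk8, the JNK kinase that phosphorylates Bcl2l11 and Bmf proteins, was -0.43, -0.35, -0.24 and -0.25 log2 units from 0 min by its brightest probe. Another Mapk8 probe was at 0.41, 0.36, 0.31 and 0.36, opposite in sign at every time, and the third was at -0.27, -0.04, -0.05 and 0.23, so the array gives no direction for this gene.

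The 5 genes whose courses were closest to that of Bmf were found among 8801 genes with a symbol that were well above background on all 5 arrays. The measure was the root mean square difference of the log2 levels after each gene was centred on its own mean, and its base of 5 arrays is small. The closest was Pitpnm2, a phosphatidylinositol transfer protein, with a difference of 0.104 log2 units and changes of -0.42, -0.78, -0.64 and -0.79 against 0 min. H6pd, the hexose-6-phosphate dehydrogenase of the endoplasmic reticulum, followed at 0.115, with changes of -0.12, -0.61, -0.39 and -0.32. Naa60, an N-terminal acetyltransferase, Gnpda2, a glucosamine-6-phosphate deaminase, and Larp4b, an RNA-binding protein, lay at 0.125, 0.130 and 0.130. Each of the 5 was below its 0 min level at every later time, which follows from choosing them for closeness to Bmf on these same arrays. Of the 5, 3 (Pitpnm2, Gnpda2 and Larp4b) were lowest at 60 min and not at 30 min.

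**Figure D4:**
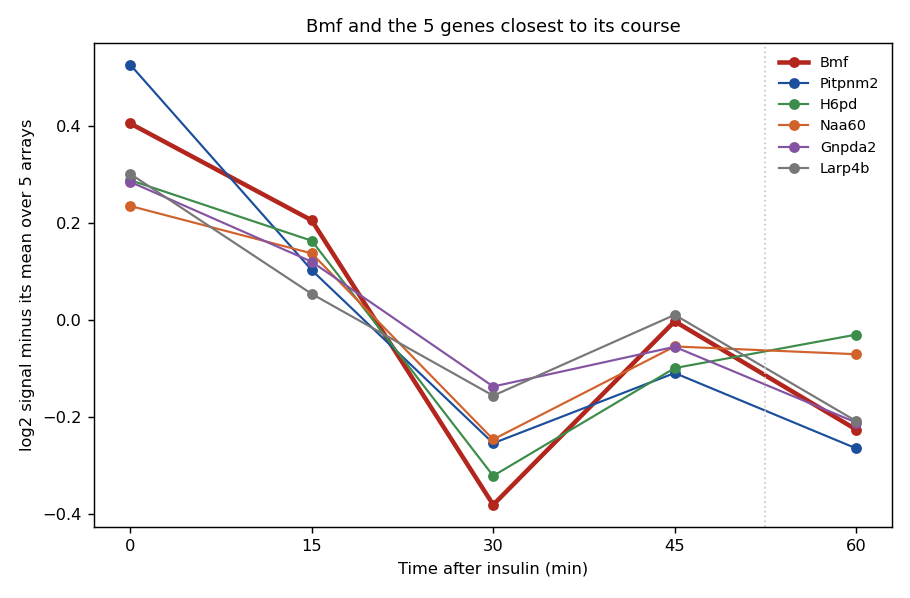
log2 signal minus its mean over the 5 arrays, against minutes of insulin, for Bmf and the 5 genes with the smallest root mean square difference from it, 1 array per time; the dotted line separates slides 1 and 2. All 6 genes were highest at 0 min, and Bmf had the lowest point at 30 min.

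The calls for Bmf and Bcl2l11 held under scaling by the array median, by quantiles and in the authors' series matrix, and were lost with normexp. Bmf was -0.80 to -0.79 log2 units from 0 min at 30 min under the first 3, and -0.29 under normexp. The first 3 rescale the same background-subtracted signal, so they are no separate check of these calls. With normexp, run with an offset of 50 units, the share of all genes past 1.5-fold was also smaller at the times of these calls. It was 0.513%, 0.841% and 4.48% at 30, 45 and 60 min, against 2.06%, 2.81% and 7.16%. The dimmer Mcl1 probe was 0.66 log2 units above 0 min at 60 min with normexp, past 1.5-fold, against 0.56 to 0.57 under the others. The other Mcl1 values stayed under 1.5-fold in these ways of making the values against 0 min, apart from the 15 min array with normexp on all spots, where that fit failed.

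**Figure D5:**
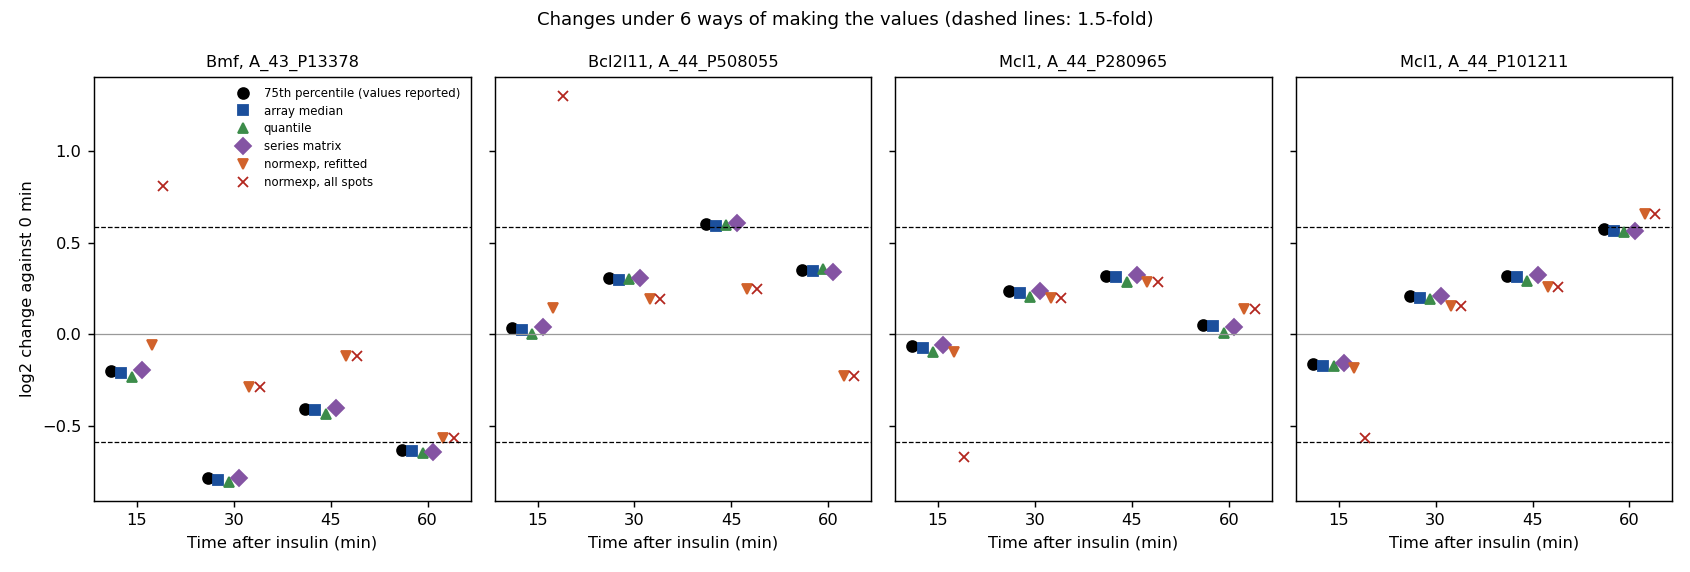
log2 change against 0 min of the Bmf, Bcl2l11 and Mcl1 probes under 6 ways of making the values (symbols, spread sideways for legibility; dashed lines, 1.5-fold). The scaling methods and the series matrix fall together, and normexp draws Bmf at 30 min and Bcl2l11 at 45 min inside the lines.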

How the data were processed

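RNA of 5 samples, 1 per time, was read on rat array design 014879, annotated on rn4. Per the file headers, the deposited intensity is the processed signal of Agilent Feature Extraction 9.5.3.1, background-subtracted and detrended, so that 15.9% to 18.8% of spots per array were at or below 0. The series matrix that the authors deposited has log2 values for 19777 probes; from the values, they match log2 of the signal over the 75th percentile centred on each probe's median, with correlations of at least 0.9994 across probes and column medians of 0. How its probes were chosen is not stated, but its 19746 non-control probes were those well above background on all 5 arrays.

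Control spots and 100 to 163 outlier spots per array were left out, spots of a probe were averaged, the signal was divided by the array's 75th percentile, and log2 was taken. Lower values were raised to the dimmest detected signal of their array, or, for the trend, to 1 floor of -4.90 log2 units shared by all arrays. Members were probes whose file name, without the suffix for predicted genes, was 1 of the 10 symbols. Other probes were named by accession (10811) or symbol (8696) through RefSeq GRCr8, used for names and promoters only, and 21505 kept the file's name. A change was given where a probe was well above background on both arrays. Where it was so on only 1 of them, the difference was taken from the dim signal or the dimmest detected signal of that array, whichever was higher. Such a difference is not a lower limit, since the dim signal is itself uncertain. Slopes on time came from limma 3.58.1 under R 4.3.3 over all probes, with moderated variances and Benjamini-Hochberg adjustment, and was tested on simulated data. Spots of 141 probes with at least 8 spots had a median SD of 0.118 to 0.140 log2 units within an array. Motifs were searched on both strands of RefSeq promoter windows, without the bases after the start. Other steps ran in Python 3.11.15 with pandas 2.3.3, numpy 2.4.6 and, for plots, matplotlib 3.10.9.

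All members were named with all their probes. From each of the 4 lists, the 3 genes with the largest mean absolute change at 30, 45 and 60 min were named, and for the member with the widest range, the 5 closest profiles. The members and lists were chosen with earlier results of these data known. Alternatives were other background corrections, scalings, filters, probe choices, baselines and thresholds.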

Additional observations from a re-analysis of the deposited data

How the results depend on the processing

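The number of members past 1.5-fold, 0, 1, 1 and 1 at 15, 30, 45 and 60 min, changed under these alternatives. With normexp it was 7 of 9 at 15 min, beside 46.4% of all genes. At 30, 45 and 60 min it was 0 with normexp, beside 0.513%, 0.841% and 4.48%. On the 15 min array that fit was distorted by 5 spots far below their local background. Refitted without them, an alternative chosen after seeing the data, it was 0 at 30, 45 and 60 min. The shares of all genes were then 0.513%, 0.841% and 4.48%. At 2-fold the number of members was 0 at 30, 45 and 60 min, beside 0.443%, 0.598% and 1.34% of all genes. With 15 min as baseline it was 0 at 45 and 60 min, beside 2.61% and 9.45%. The number of other apoptosis genes was 2, 0, 0 and 2. With normexp it was 19 of 48 at 15 min, beside 46.4% of all genes, and with the refit 0, beside 0.382%. It was 1 at 15 min with the series matrix, with genes on all 5 arrays only and with the mean over probes. The shares of all genes were then 1.68%, 1.70% and 1.99%. At 30 min the number was 1 without a filter, beside 4.20%, and 1 with 15 min as baseline, beside 1.65%. That baseline gave 7 at 60 min, beside 9.45% of all genes. With both normexp fits the 2 other apoptosis genes at 60 min were Cycs and Tnfrsf1a in place of Ripk1 and Tnfrsf1a, and at 60 min Bcl2l11 turned to -0.23 and Bak1 to -0.11 log2 units. Both normexp fits add an offset of 50 units to each corrected signal. Before scaling, Bcl2l11 read 18.1 to 40.5 units and Bak1 27.6 to 63.8 units with the scanner software's correction. Why the background correction moves these values was not tested. The trend gave 0 member calls under all 7 alternatives. Of 322 alternative values of member changes, 291 moved by less than the software's error and 31 by more, 19 of these with normexp on all spots. Scaling moved the median of all genes by at most 0.023 log2 units. No paired analysis was possible because each time has 1 array and the labels give no replicate numbers.

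With 1 array per time and the 60 min array alone on its slide, the spread between cultures is unknown. Signal over background limits Bcl2 to differences from readings that were not well above background. It leaves Bcl2l11, Bmf, Bik and Bak1 with signals where small differences in background subtraction matter.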
